A study of Mus musculus with 4 samples.

Results

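The genes described here encode the lysosome's digestive enzymes, the proteins of its membrane, the pump that acidifies it and the transcription factors that control many of these genes. They are 43 listed genes, of which 42 had an array row that carries their symbol alone, among 22180 genes with such a row. Where a gene had several rows, the one with the highest mean level was used. Glb1, beta-galactosidase, is the exception: its row also carries another gene's symbol, so no value is given for it. A mean level of at least 3.02 on the log2 scale, the median of all rows, was required for testing, and 41 of the 42 genes passed it on their mean over both groups. Tfeb did not.

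The RNA came from cultured vascular smooth muscle cells, the contractile cells of the arterial wall, taken from mouse thoracic aorta. The knockout arrays (n = 2) hold cells of SM22α-Cre(+)Mmp14(fl/fl)Apoe(−/−) mice, in which Cre recombinase under the smooth muscle promoter SM22α deletes the floxed Mmp14 gene, which encodes the membrane-bound protease MT1-MMP. The control arrays (n = 2) hold cells of SM22α-Cre(−)Mmp14(fl/fl)Apoe(−/−) mice, which carry the same floxed alleles without Cre. Both groups lack Apoe, a carrier of plasma lipoproteins, both ate a Western diet for 3 months, and the aortic cells of both were grown for 5 days after the adventitia was stripped and the tissue digested. The age of the mice is not given in the sources used here. The comparison asked which transcripts depend on MT1-MMP in these cells. The design text names 2 independent pairs of mice, so the spread between arrays covers mouse, culture and hybridisation together. The number of arrays limits the precision, and 0.333 is the smallest two-sided p that an exact permutation test can reach with 2 against 2 arrays.

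Array medians ran from 3.03 to 3.05 in the knockouts and were 3.01 in both controls. Mmp14 read 8.27 and 8.19 in the knockouts against 8.71 and 9.05 in the controls (log2 difference -0.65, limma adjusted p = 0.319), only a partial check of the labels. Where its probes lie relative to the floxed exons was not examined, and the cause of the size of its difference was not tested. All 10 smooth muscle markers examined were above the test level. Their means ran from 3.19 in the knockouts and 3.33 in the controls for Myocd, close to that level, to 11.14 and 11.19 for Acta2. Of 28 macrophage markers with a row, 26 were above it too, all 26 of them higher in the knockouts (median log2 difference 1.17), so the cultures of both groups held macrophage transcripts. In bulk RNA, a different number of cells of a type and a different amount of RNA per cell cannot be told apart.

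Lysosomes are acidic compartments in which proteases, glycosidases, sulfatases and lipid hydrolases take apart material delivered by endocytosis, phagocytosis and autophagy. A vacuolar proton ATPase keeps them acidic, and heavily glycosylated proteins such as LAMP1 and LAMP2 line their membrane. Macrophages and lipid-loaded cells of the atherosclerotic artery depend on them to digest lipoprotein cholesterol. The MiT family factors TFEB, TFE3 and MITF bind E-boxes, short DNA motifs with CACGTG at their centre, which lie near the start of many lysosomal genes.

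The promoters of 6 of these genes are shown because they hold the motif that the MiT factors recognise and because the genes differ in how far their levels moved between the groups. Each runs 5′ to 3′ from 250 bases before to 50 bases after the gene's start, from RefSeq with build GRCm38.p6, and capitals mark CACGTG. The genome build behind the array rows is not given in the sources used here.
Lgmn, chr12:102439043-102439342, minus strand: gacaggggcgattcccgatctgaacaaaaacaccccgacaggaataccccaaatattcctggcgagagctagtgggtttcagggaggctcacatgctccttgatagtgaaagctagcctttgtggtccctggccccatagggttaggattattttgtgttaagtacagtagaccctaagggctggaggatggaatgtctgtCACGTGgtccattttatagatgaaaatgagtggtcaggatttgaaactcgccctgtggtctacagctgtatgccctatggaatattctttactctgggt
Naglu, chr11:101069844-101070143, plus strand: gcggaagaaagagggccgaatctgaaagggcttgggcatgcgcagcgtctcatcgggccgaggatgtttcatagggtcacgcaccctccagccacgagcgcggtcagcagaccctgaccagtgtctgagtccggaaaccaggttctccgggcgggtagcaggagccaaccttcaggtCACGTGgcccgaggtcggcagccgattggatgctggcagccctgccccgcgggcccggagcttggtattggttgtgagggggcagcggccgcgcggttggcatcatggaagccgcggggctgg
Ctsa, chr2:164833523-164833822, plus strand: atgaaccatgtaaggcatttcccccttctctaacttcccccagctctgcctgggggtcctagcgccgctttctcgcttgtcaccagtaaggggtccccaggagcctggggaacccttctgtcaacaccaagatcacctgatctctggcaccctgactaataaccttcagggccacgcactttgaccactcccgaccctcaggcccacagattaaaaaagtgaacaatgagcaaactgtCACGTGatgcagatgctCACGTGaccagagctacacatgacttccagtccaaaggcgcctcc
Lamp1, chr8:13158911-13159210, plus strand: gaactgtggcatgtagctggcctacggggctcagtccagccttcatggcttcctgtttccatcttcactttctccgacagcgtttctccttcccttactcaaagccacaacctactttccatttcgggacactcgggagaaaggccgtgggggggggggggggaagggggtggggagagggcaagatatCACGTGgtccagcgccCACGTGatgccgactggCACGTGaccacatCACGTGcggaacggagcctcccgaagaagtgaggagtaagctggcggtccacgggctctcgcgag
Atp6v0d1, chr8:105566015-105566314, minus strand: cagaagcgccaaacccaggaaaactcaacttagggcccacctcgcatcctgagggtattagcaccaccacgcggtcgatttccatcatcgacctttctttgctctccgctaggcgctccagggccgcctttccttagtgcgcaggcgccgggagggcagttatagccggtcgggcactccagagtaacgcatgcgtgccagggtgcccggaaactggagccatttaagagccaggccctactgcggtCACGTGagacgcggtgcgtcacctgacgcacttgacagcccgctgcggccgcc
Gaa, chr11:119267713-119268012, plus strand: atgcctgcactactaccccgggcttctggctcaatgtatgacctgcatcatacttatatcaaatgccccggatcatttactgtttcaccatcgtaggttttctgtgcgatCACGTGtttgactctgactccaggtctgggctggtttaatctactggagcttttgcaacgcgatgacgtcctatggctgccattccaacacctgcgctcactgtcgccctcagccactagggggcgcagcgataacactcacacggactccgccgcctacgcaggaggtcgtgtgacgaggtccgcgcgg

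Lgmn and Naglu are among the 3 members with the largest differences between the groups, and each has 1 match, starting at -49 and -73 counted from the gene's start. Ctsa, with a smaller difference, has matches at -12 and +6. Lamp1, Atp6v0d1 and Gaa had small differences, and Lamp1 has 4 matches, between -61 and its start. Over the 35 members in the promoter table, 12 (34.3%) hold CACGTG in at least 1 promoter, against 8.09% of all 27025 genes in the table. Of 91 genes in that table from the 6 further lists of lysosomal machinery described below, 23 (25.3%) hold it. The motif reads the same on both strands, so 1 search covers both. Counted over promoters of the same length, the share was 27.9% of 43 member promoters and 7.15% of 32851 in all. The longer TCACGTGA, which contains CACGTG, occurred in 6 of the 35 members (17.1%), in 11 of those 91 genes (12.1%) and in 1.12% of all genes. Besides the genes shown, the matches lay in Ctsd, Ctsl, Mcoln1, Glb1, Atp6v1a and Gla. The 11 tested members that hold the motif had a median log2 difference of 0.27 (from -0.12 to 1.31) and the 22 without it 0.31 (from -0.26 to 1.35). Higher in the knockouts were 10 of the 11 and 18 of the 22, against 41.7% of all genes tested on the arrays. Without overlap were 9 and 15 of them, against 16.7% of all genes tested. The difference between the members with and without the motif was not tested. A match is a stretch of letters, and no binding was measured here.

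Most lysosomal genes read higher in the knockout cultures, by small amounts. Of the 41 tested, 34 were higher and 7 lower, and the median log2 difference, knockout minus control, was 0.30 (1.23-fold), against -0.05 over all 12550 genes tested, of which 41.7% were higher. The largest differences were those of Ctsc (1.35), Naglu (1.31), Lgmn (1.05), Mitf (0.94) and Cd68 (0.82). No single gene passed the test over all genes: limma called 0 of the 41 members at an adjusted p under 0.05, and 0.0% of all genes tested. At an unadjusted p under 0.05, 11 members were higher and 0 lower, where the shares over all genes were 4.89% higher and 6.78% lower. The knockout values lay wholly above the control values for 27 members and wholly below for 2, against 16.7% and 27.5% of all genes. With 2 arrays a group such a separation is common, and it passed no test. Some of the separations were very narrow. With arrays centred on their median, 22 members lay above and 3 below, against 14.2% and 31.8% of all genes. On their mean over both groups the 41 members pass a stricter level of 4.90 as well, where 12 were higher at an unadjusted p under 0.05. Mitf passes that level only through the knockouts, since its controls read 4.84 and 4.58. Over the 6787 genes at that level the shares were 5.6% higher and 8.09% lower by that p, 15.6% above and 32.5% below without overlap, and 36.7% higher in all.

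**Figure D1:**
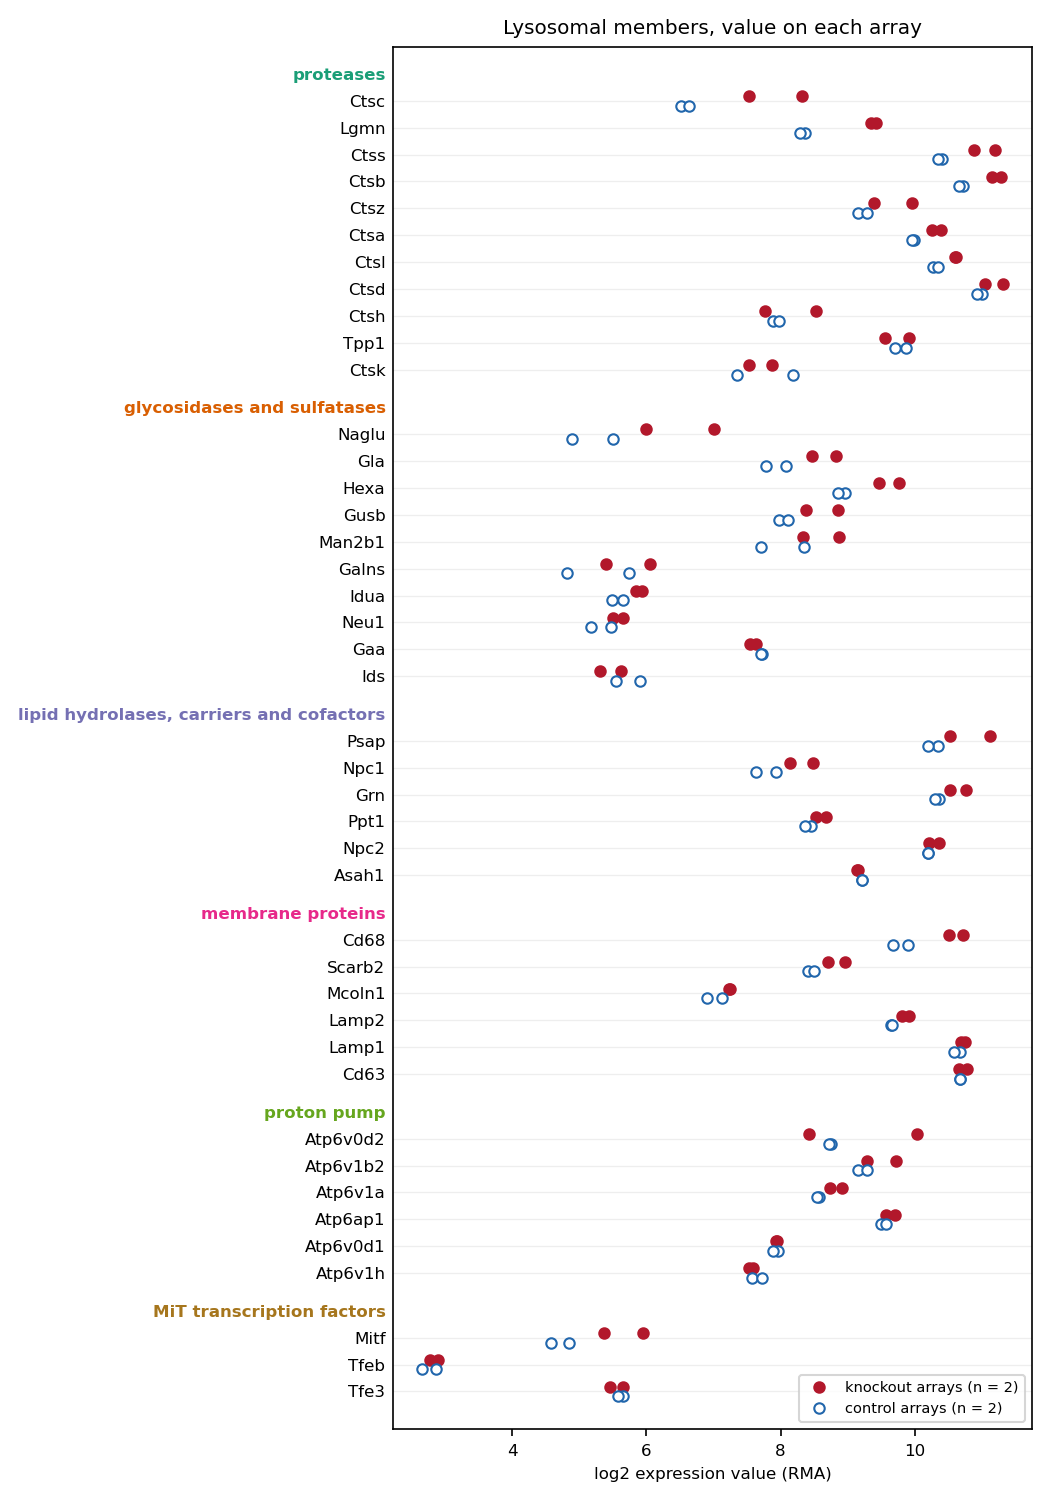
Log2 expression value (x axis) of each of the 42 measured lysosomal genes (rows, grouped by class and ordered by difference) on each array, with filled red points for the 2 knockout arrays and open blue points for the 2 control arrays. Ctsc, Lgmn, Naglu, Cd68 and Mitf show both knockout points to the right of both control points, while for Atp6v0d2 1 knockout array lies at 10.03 and the other at 8.43, below both controls.

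The class medians of the log2 difference were all above 0, and neither they nor the gaps between them were tested. The glycosidases and sulfatases had a median difference of 0.51 (8 of 10 higher), the proteases 0.35 (9 of 11 higher), the lipid hydrolases, carriers and cofactors 0.25 (5 of 6 higher), the membrane proteins 0.22 (6 of 6 higher), the proton pump 0.18 (5 of 6 higher) and the 2 tested MiT factors 0.44 (1 of 2 higher). The order of the classes changed with single arrays: without control replicate 2 the proteases stood at 0.35, the glycosidases and sulfatases at 0.24, the pump at 0.19 and the membrane proteins at 0.17, and without knockout replicate 2 the membrane proteins, at 0.19, were above the lipid class at 0.15. Without overlap between groups and higher in the knockouts were 8 of the 11 proteases, 6 of the 10 glycosidases and sulfatases and 5 of 6 in the lipid class. So were 5 of 6 membrane proteins, 2 of 6 pump genes and 1 of the 2 tested MiT factors. Over all genes tested that share was 16.7%. Wholly below the controls were Gaa and Asah1, where the share over all genes was 27.5%. The 3 largest differences of single genes, those of Ctsc, Naglu and Lgmn, were all in soluble hydrolases, and the 2 smallest in size were those of the pump subunit Atp6v0d1 and the membrane protein Cd63.

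Among the proteases, Ctsc and Lgmn stood furthest from the controls. Ctsc, the dipeptidyl peptidase that activates serine proteases of leukocyte granules, read 7.53 and 8.31 in the knockouts against 6.52 and 6.64 in the controls. Both knockout arrays lay above both controls, and they were themselves 0.78 apart. The difference was 1.35 (SE 0.29, 95% interval 0.59 to 2.10, limma adjusted p = 0.262), or 2.54-fold. Lgmn, the asparaginyl endopeptidase legumain that processes cathepsins, read 9.34 and 9.42 in the knockouts against 8.37 and 8.29 in the controls. Its groups were tight and far apart, with a difference of 1.05 (SE 0.14, 95% interval 0.69 to 1.40), or 2.07-fold. Its adjusted p of 0.155 in limma was the smallest of all members and still missed the threshold.

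The 4 next proteases had smaller differences, again without overlap. Ctss, the cysteine cathepsin that trims the invariant chain in antigen-presenting cells, had 10.89 and 11.20 in the knockouts against 10.41 and 10.35 in the controls, a difference of 0.67 (SE 0.17, 1.59-fold). Ctsb, a broadly expressed cysteine cathepsin, had 11.16 and 11.29 against 10.72 and 10.66, knockouts against controls, a difference of 0.53 (SE 0.14, 1.44-fold). For Ctsz, a cathepsin that acts as a carboxypeptidase, 9.40 and 9.96 in the knockouts stood against 9.15 and 9.28 in the controls, with 1 knockout array just above the higher control. Its difference of 0.47 (SE 0.23) had a 95% interval that included 0, from -0.14 to 1.07, and it ran from 0.18 to 0.75 when single arrays were left out. Ctsa, a carboxypeptidase that also shields lysosomal beta-galactosidase and neuraminidase from breakdown, read 10.25 and 10.39 in the knockouts against 9.98 and 9.96 in the controls, a difference of 0.35 (SE 0.14). Limma gave these 4 genes adjusted p-values from 0.305 (Ctss) to 0.512 (Ctsz).

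The other 5 proteases differed by -0.07 to 0.30. Ctsl, an endopeptidase, differed by 0.30, and Ctsd, the main aspartic protease of lysosomes, by 0.22, both without overlap. Ctsh, an aminopeptidase, differed by 0.22 with overlap, since knockout arrays of 7.77 and 8.52 enclosed the controls at 7.89 and 7.97. Tpp1, a tripeptidyl peptidase, differed by -0.05 and Ctsk, the collagen-cutting cathepsin of osteoclasts, by -0.07, and the groups of both overlapped. The Ctsk controls alone, at 7.36 and 8.18, were further apart than the knockouts at 7.53 and 7.87. The sign of 3 of these differences rested on single arrays: Ctsh (to -0.16 without knockout replicate 2), Tpp1 (up to 0.13, without knockout replicate 1) and Ctsk (up to 0.35, without control replicate 2).

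Glycosidases and sulfatases, which strip sugars and sulfate groups from glycoproteins, glycolipids and glycosaminoglycans, had a class median of 0.51 that ran from 0.24 to 0.80 when single arrays were left out. Naglu, which removes N-acetylglucosamine from heparan sulfate, read 6.0 and 7.01 in the knockouts against 5.51 and 4.89 in the controls. The groups did not overlap but were wide, and the difference of 1.31 (SE 0.41, 2.48-fold) had a 95% interval from 0.24 to 2.38 (limma adjusted p = 0.361). Without knockout replicate 2 it was 0.80, and without knockout replicate 1 it was 1.82. Gla, alpha-galactosidase A, which cuts galactose from globotriaosylceramide, read 8.47 and 8.82 in the knockouts against 7.78 and 8.08 in the controls, a difference of 0.72 (SE 0.20). Hexa, the alpha subunit of the hexosaminidase that degrades GM2 ganglioside, read 9.46 and 9.77 against 8.97 and 8.85, knockouts against controls, a difference of 0.71 (SE 0.17). Gusb, beta-glucuronidase, had 8.37 and 8.85 in the knockouts against 7.97 and 8.11 in the controls, a difference of 0.57 (SE 0.21). Gla, Hexa and Gusb were separated between the groups, with limma adjusted p-values of 0.335, 0.285 and 0.406.

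Differences of similar size in Man2b1 and Galns came with overlap. Man2b1, the lysosomal alpha-mannosidase, read 8.33 and 8.87 in the knockouts against 8.35 and 7.71 in the controls, a difference of 0.57 (SE 0.30) that was 0.25 without control replicate 2 and 0.89 without control replicate 1. Galns, a sulfatase of keratan sulfate and chondroitin sulfate, read 5.40 and 6.06 in the knockouts against 5.74 and 4.81 in the controls, a difference of 0.45 (SE 0.39). Galns depended on single arrays: without control replicate 2 the difference was -0.02. Idua, which removes iduronic acid from dermatan and heparan sulfate, differed by 0.32, and Neu1, a sialidase, by 0.25, both without overlap. Gaa, the enzyme of lysosomal glycogen breakdown, differed by -0.12 with both knockout arrays just below the controls, and Ids, iduronate sulfatase, by -0.26 with overlap.

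In the lipid class, Psap and Npc1 had the largest differences. Psap, the precursor of the saposins that help sphingolipid hydrolases reach their substrates, read 10.53 and 11.11 in the knockouts against 10.35 and 10.20 in the controls. The knockouts lay above the controls, 1 of them by only a small step, and the difference was 0.54 (SE 0.24, 95% interval -0.08 to 1.16). It was 0.25 without knockout replicate 2 and 0.84 without knockout replicate 1. Npc1, the membrane protein that exports cholesterol from lysosomes, read 8.14 and 8.48 in the knockouts against 7.93 and 7.63 in the controls, a difference of 0.53 (SE 0.20, limma adjusted p = 0.418). A second Npc1 row, below the test level, differed by -0.01. Npc2, the soluble protein that hands cholesterol to NPC1, had 10.21 and 10.37 in the knockouts against 10.19 and 10.19 in the controls, a difference of 0.10 (SE 0.14). The 2 partners of cholesterol export thus had different measured differences, and the gap between them was not tested. Grn, progranulin, a lysosomal and secreted glycoprotein, read 10.52 and 10.76 in the knockouts against 10.36 and 10.30 in the controls, a difference of 0.31 (SE 0.15). Ppt1, which removes palmitate from proteins, read 8.52 and 8.68 against 8.45 and 8.36, knockouts against controls, a difference of 0.20. Asah1, acid ceramidase, read 9.15 and 9.14 in the knockouts against 9.21 and 9.22 in the controls, a difference of -0.07 with a 95% interval from -0.41 to 0.27.

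Of the membrane proteins, Cd68 stood apart. This glycoprotein, abundant in macrophages and used as their marker, read 10.52 and 10.71 in the knockouts against 9.90 and 9.68 in the controls, a difference of 0.82 (SE 0.16, 95% interval 0.40 to 1.25, limma adjusted p = 0.246), or 1.77-fold. The other 5 membrane proteins had smaller differences, up to 0.37. Lamp1 read 10.69 and 10.74 in the knockouts against 10.68 and 10.58 in the controls, a difference of 0.09 (SE 0.14, 95% interval -0.27 to 0.44). Lamp2, which also takes part in chaperone-mediated autophagy, read 9.81 and 9.91 against 9.64 and 9.66, knockouts against controls, a difference of 0.21 (SE 0.14). Cd63, a tetraspanin of late endosomes and exosomes, read 10.66 and 10.79 in the knockouts against 10.68 and 10.68 in the controls, a difference of 0.04 with overlap. Scarb2, the receptor LIMP-2 that carries glucocerebrosidase to lysosomes, read 8.70 and 8.95 in the knockouts against 8.41 and 8.51 in the controls, a difference of 0.37 (SE 0.16). Mcoln1, the calcium-permeable channel TRPML1, read 7.23 and 7.25 against 7.13 and 6.90, knockouts against controls, a difference of 0.23 (SE 0.15). Cd68 was the 1 gene of the 6 with an unadjusted p under 0.05.

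**Figure D2:**
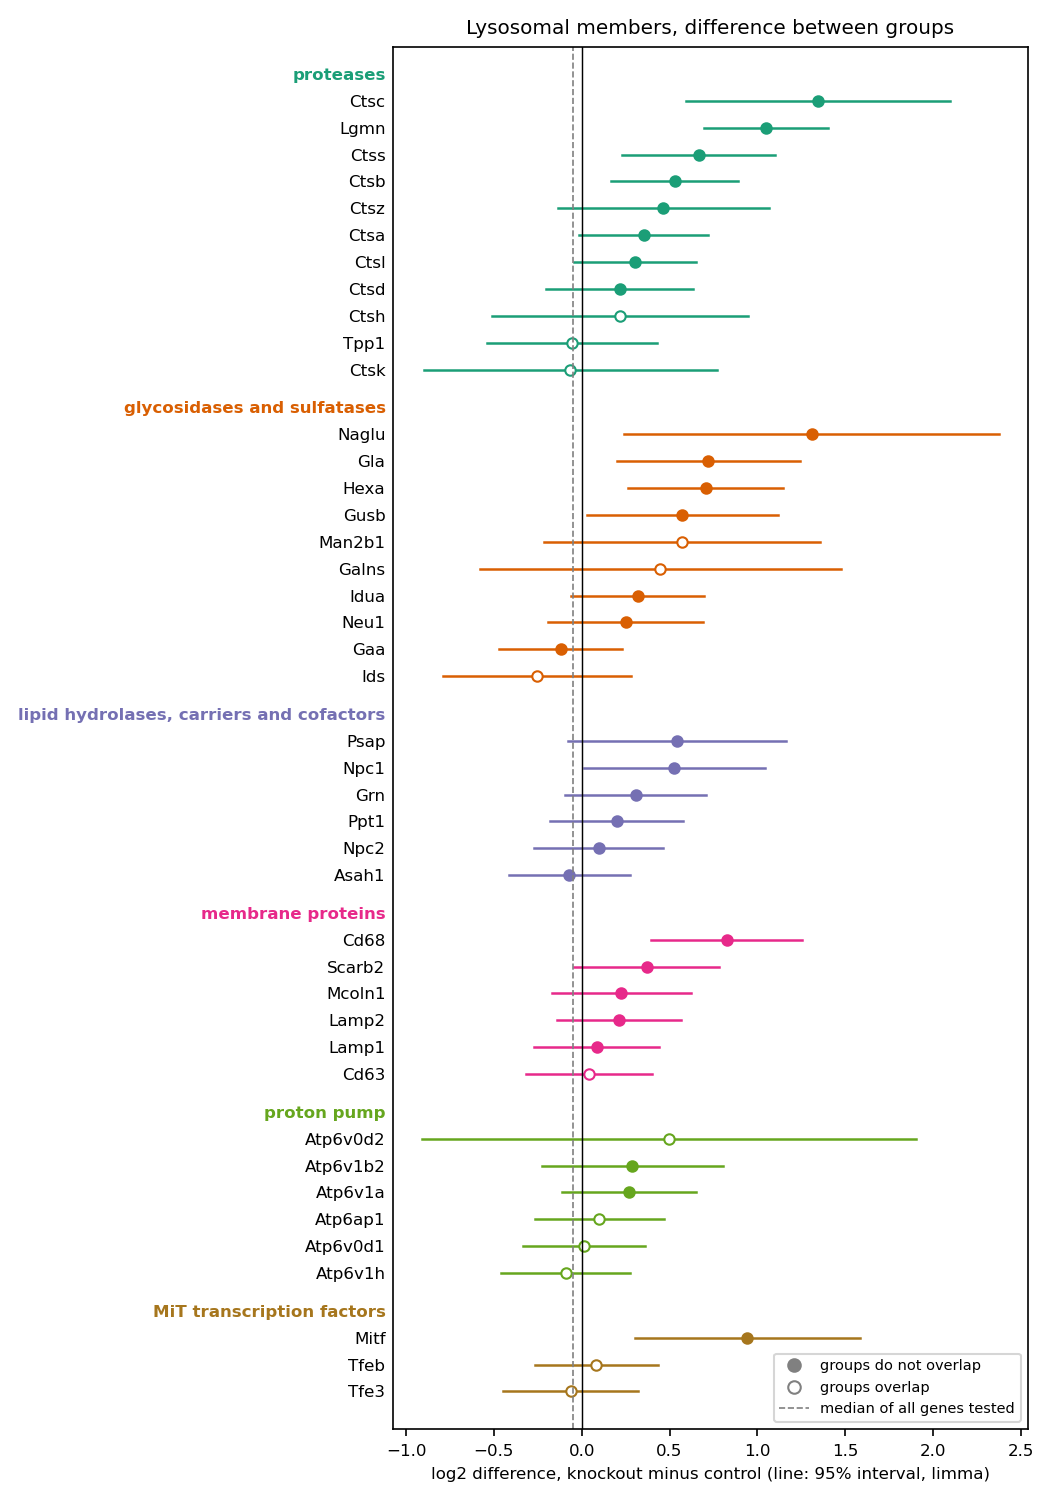
Log2 difference, knockout minus control (x axis), of each of the 42 measured genes with its 95% interval from limma. Filled points mark genes whose groups do not overlap, open points those that overlap, and the dashed line is the median of all genes tested (-0.05). The intervals of Lgmn (0.69 to 1.40) and Cd68 (0.40 to 1.25) lie wholly above 0, while those of Lamp1 (-0.27 to 0.44) and Atp6v0d1 (-0.34 to 0.36) are centred near it.

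The proton pump genes had a class median of 0.18, which ran from 0.04 to 0.20 when single arrays were left out, and their widest spread came from 1 knockout array. The pump is built of a membrane sector, V0, and a catalytic sector, V1. Atp6v0d1, the widely expressed form of the V0 subunit d, read 7.93 and 7.95 in the knockouts against 7.97 and 7.89 in the controls, a difference of 0.01 (SE 0.13, 95% interval -0.34 to 0.36). Atp6v0d2, the form of the same subunit enriched in osteoclasts and some macrophages, read 8.43 and 10.03 in the knockouts against 8.75 and 8.72 in the controls. Knockout replicate 2 was thus far above the other 3 arrays, and knockout replicate 1 below both controls. The difference of 0.49 (SE 0.54, 95% interval -0.91 to 1.90) was -0.31 without knockout replicate 2 and 1.30 without knockout replicate 1. In the catalytic sector, Atp6v1a, the ATP-splitting subunit A, had 8.74 and 8.92 in the knockouts against 8.58 and 8.54 in the controls, a difference of 0.27 (SE 0.15). Atp6v1b2, a form of subunit B, had 9.29 and 9.72 against 9.15 and 9.29, knockouts against controls, a difference of 0.29 (SE 0.20). Its lower knockout array, at 9.2940, was barely above its higher control, at 9.2932. The second Atp6v1b2 row differed by 0.43. Atp6v1h, the regulatory subunit H, read 7.59 and 7.53 in the knockouts against 7.58 and 7.72 in the controls (difference -0.09), and Atp6ap1, an accessory protein of pump assembly, 9.70 and 9.57 against 9.50 and 9.57, knockouts against controls (difference 0.10). Both overlapped, and none of the 6 pump genes had an unadjusted p under 0.05.

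Of the MiT transcription factors among the members, Mitf had the only difference above 0.1. Mitf read 5.36 and 5.94 in the knockouts against 4.84 and 4.58 in the controls, without overlap. The difference of 0.94 (SE 0.25, 95% interval 0.30 to 1.58, limma adjusted p = 0.318), or 1.92-fold, ran from 0.65 to 1.23 when single arrays were left out. Tfe3 read 5.46 and 5.65 in the knockouts against 5.66 and 5.58 in the controls, a difference of -0.06 (95% interval -0.45 to 0.32). Tfeb read 2.78 and 2.90 in the knockouts against 2.65 and 2.86 in the controls, all under the test level of 3.02, and its difference of 0.08 comes from the fit of all genes regardless of level. Tfec, a further MiT gene, is in the nutrient sensing and autophagy list below and was named after its values were seen. It read 4.60 and 6.26 in the knockouts against 5.85 and 4.90 in the controls, a difference of 0.06 with overlap. Transcript levels do not report on the MiT factors' activity, which is regulated largely by their movement into the nucleus.

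The 2 knockout arrays differed from each other across the lysosomal genes. Knockout replicate 2 was above knockout replicate 1 for 37 of the 41 tested members (90.2%), with a median gap of 0.23, while over all genes tested the share was 52.9% and the median gap 0.02. The controls had a median gap, replicate 2 minus replicate 1, of -0.06 over the members. Relative to the mean of the controls, the median member was 0.18 higher in knockout replicate 1 and 0.42 higher in knockout replicate 2. The members' summed linear signal was 28172 and 33741 in the knockouts against 24553 and 23905 in the controls. For the glycosidases and sulfatases the 2 knockout medians were 0.32 and 0.80, for the proteases 0.28 and 0.59, and for the pump 0.04 and 0.20. So the direction was shared by both knockout arrays and the size was not. With all arrays 11 members had an unadjusted p under 0.05, and the count was 5 without knockout replicate 2, 4 without control replicate 2 and 16 without knockout replicate 1, where the shares over all genes ran from 3.58% to 6.37%.

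**Figure D3:**
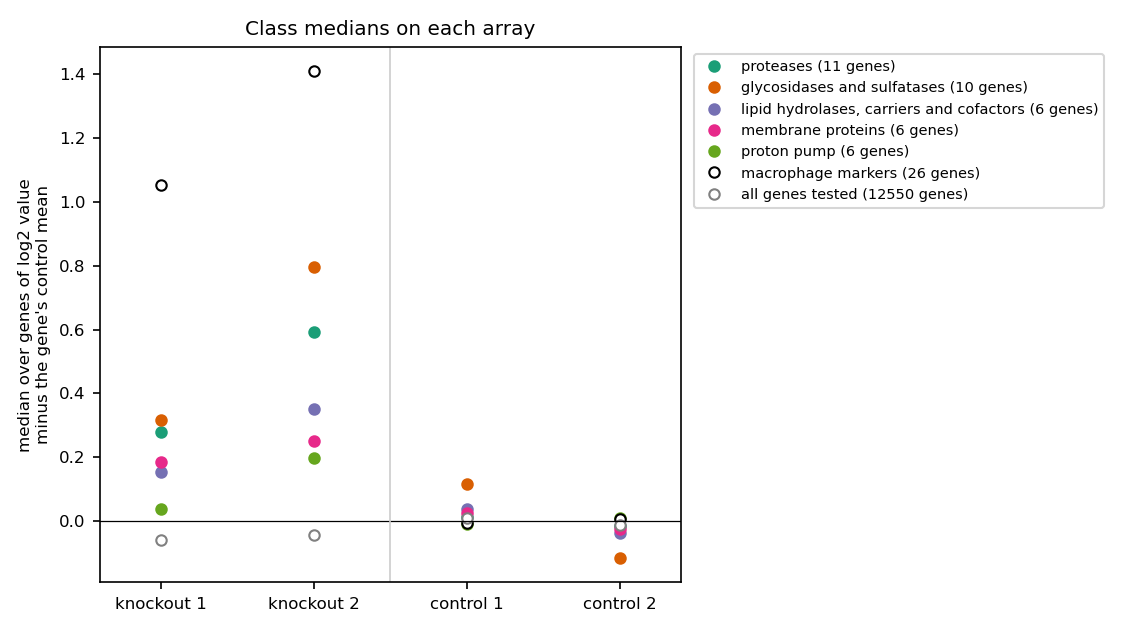
Median over the genes of a class of the log2 value minus the gene's control mean (y axis) on each of the 4 arrays, for 5 classes of lysosomal genes (filled points), macrophage markers (open black) and all genes tested (open grey). All 5 classes are above 0 on both knockout arrays and higher on knockout 2 (0.20 to 0.80) than on knockout 1 (0.04 to 0.32), and the macrophage markers stand at 1.05 and 1.41.

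Macrophage markers moved between the same arrays. The list holds 29 genes, none of them a member, and 26 were tested. All 26 were higher in the knockouts, 24 of them without overlap, against shares of 41.7% and 16.7% over all genes tested. The summed linear signal of the list was 10500.2 and 12832 in the knockouts against 6307 and 6000 in the controls. Cd163 and Ccr2, defining markers of some macrophages and of monocytes, were below the test level. The 3 brightest were Lyz2, the myeloid lysozyme, which differed by 0.22, Tyrobp, a myeloid signalling adaptor, by 0.71, and Fcer1g, an Fc receptor chain, by 1.04. Like most lysosomal members, most macrophage markers were higher in knockout replicate 2 than in knockout replicate 1 (19 of 26, median gap 0.28, against 52.9% of all genes tested). Their median difference of 1.17 was larger than the 0.30 of the lysosomal members. The part of the macrophage transcripts in the lysosomal differences was not tested.

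Markers of other cells were read beside them. Osteoclast markers matter here because Ctsk, Atp6v0d2 and Mitf are prominent in that cell. Of 8, Calcr, Dcstamp, Oscar and Mmp9 were below the test level, and the 4 tested had a summed linear signal of 79.6 and 98.0 in the knockouts against 68.1 and 84.5 in the controls, ranges that overlap. Itgb3, Nfatc1 and Ocstamp, the brightest of them, differed by 0.13, 0.64 and -0.25. Acp5, an acid phosphatase of osteoclasts and macrophages, is in the list of other hydrolases below and was named after its values were seen. It read 3.34 and 7.43 in the knockouts against 4.25 and 4.74 in the controls. The knockout arrays, 4.09 apart, thus enclosed the controls. Endothelial markers were lower in 11 of 14 tested, all 11 without overlap. Over all genes tested, 27.5% were lower without overlap and 41.7% were higher. The summed endothelial signal was 461 and 454 in the knockouts against 1773 and 989 in the controls. Eng, Emcn and Cdh5, the brightest, differed by -0.69, -2.48 and -2.51. The 3 higher, named after their values were seen, were Kdr (0.32, without overlap), Vwf (0.29) and Flt1 (0.10), the last 2 with overlap. Smooth muscle markers had a median difference of -0.01 over 10 genes, and their summed signal was 5113 and 3357 in the knockouts against 4894 and 3465 in the controls. Acta2, Tagln and Cnn1 differed by -0.05, -0.01 and 0.39, all with overlap. Fibroblast markers summed to 766 and 624 in the knockouts against 489 and 747 in the controls over 5 tested genes, of which 3 were higher and 2 lower. The brightest, Dcn, Serpinf1 and Pdgfra, differed by 0.46, 0.52 and -0.29, and of these only Serpinf1 was without overlap. Of the others, both named after their values were seen, Dpt differed by -1.51 without overlap and Lum by 0.74 with overlap. The part of all these markers in the lysosomal differences was not tested either.

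The rest of the lysosomal machinery was read from 6 further lists, of which 105 of 115 genes were tested. Of these, 62 were higher and 43 lower, with a median difference of 0.08. Limma called 0 of them, 9 higher and 4 lower had an unadjusted p under 0.05, and the groups did not overlap for 35 higher and 24 lower. Over all genes tested the shares were 4.89% and 6.78% by that p, and 16.7% and 27.5% without overlap. Other hydrolases came closest to the members, with 15 of 22 higher and a median of 0.20. Among them Siae, a sialic acid esterase, read 6.20 and 6.17 in the knockouts against 5.38 and 5.25 in the controls, a difference of 0.87 (SE 0.14, limma adjusted p = 0.188). Lipa, the acid lipase that frees cholesterol from its esters, differed by 0.84 and Galc, galactosylceramidase, by 0.57, both without overlap. In that list 9 genes were higher and 3 lower without overlap. The 3 lower, named after their values were seen, were Aga (-0.33), Smpd1 (-0.23) and Sumf1 (-0.18).

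Other lysosomal membrane proteins split, with 15 of 23 higher and a median of 0.07. Without overlap, 11 of the 23 were higher and 6 lower, against 16.7% and 27.5% of all genes tested. The largest without overlap were in transporters and channels: Mcoln2, the channel TRPML2, differed by 1.18 (SE 0.34), Slc15a3, a transporter of histidine and peptides, by 1.09 (SE 0.28), and Slc11a1, a metal transporter of macrophage phagosomes, by 1.04 (SE 0.34). Limma adjusted p-values were 0.347, 0.314 and 0.370. The largest of the 6 lower differences without overlap was that of Tpcn1, named after its values were seen, at -0.53. Of the other pump subunits 7 of 13 were higher, with a median of 0.02, beside 5 of 6 and 0.18 for the pump genes among the members. Tcirg1, the form of subunit a used by osteoclasts and immune cells, differed by 0.71, while Atp6v0a2, another form of subunit a, differed by -0.31 and Atp6v0e2, a form of subunit e, by -0.67, all without overlap.

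Sorting and nutrient-sensing genes lay on both sides of 0. The mannose 6-phosphate sorting and delivery list had 10 of 19 higher and a median of 0.06. Gnptab, which makes the mannose 6-phosphate tag, differed by 0.48, and Igf2r, a receptor for the tag, by -0.37 and Gga1, an adaptor of that receptor's transport, by -0.40. The nutrient sensing and autophagy list had 12 of 24 higher and a median of 0.00. Fnip2, a folliculin partner in the control of TFEB and TFE3, differed by 1.10 (SE 0.25, limma adjusted p = 0.269), Atg5, an autophagosome conjugation factor, by 0.40, and Wipi1, an early autophagosome protein, by -0.63. Sqstm1 and Map1lc3b, autophagy genes named here after their values were seen, differed by -0.29 and -0.11.

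Among 4 inhibitors of cathepsins, Cst6 had the largest difference, opposite in sign to that of Lgmn. Cst6, cystatin E/M, an inhibitor of legumain, read 4.28 and 4.07 in the knockouts against 5.37 and 5.30 in the controls. The groups did not overlap, and the difference was -1.16 (SE 0.15, limma adjusted p = 0.155), beside 1.05 for Lgmn. Cst3, the secreted cystatin C, differed by 0.08 and Cst7, cystatin F of immune cells, by 0.19.

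**Figure D4:**
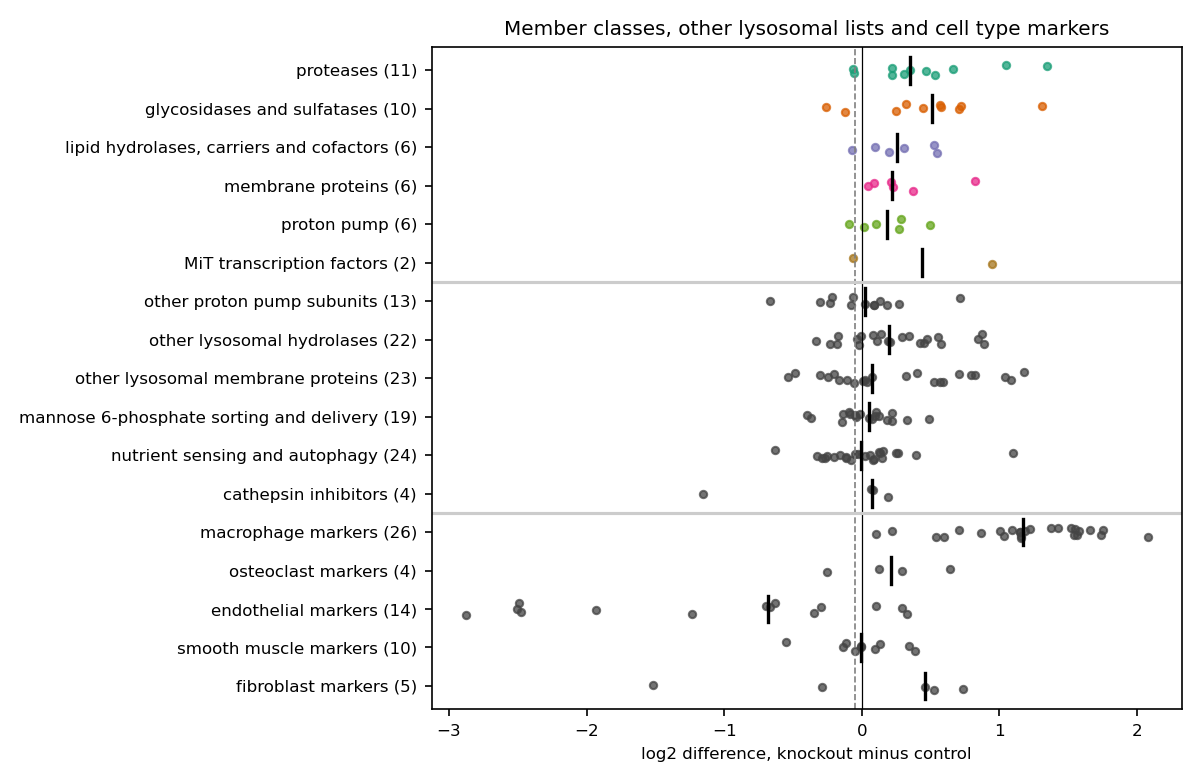
Log2 difference, knockout minus control (x axis), of every tested gene (points) in the classes of lysosomal members (top block), the further lysosomal lists (middle) and the cell type markers (bottom), with a black bar at each list's median and its number of genes in brackets. The dashed line marks the median of all genes tested (-0.05). The member hydrolase classes have medians of 0.35 and 0.51, the other pump subunits 0.02, and the macrophage markers 1.17.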

How the data were processed

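The authors deposited log2 expression values of 41345 rows on 4 Mouse Gene ST 2.1 arrays, made with RMA (background correction, normalisation between arrays and summary per row) per the submitters' processing notes. Values from 1.17 to 12.4 identify the log base. Per the labels' protocols, 10 ng of total RNA was amplified. Neither a software version nor a build is given in the sources used here. Rows were named through the platform annotation: 23521 had 1 symbol, 1814 several and 16010 none. Gene numbers of 23328 rows matched the RefSeq table of GRCm38.p6, and 0 symbols changed.

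Each of the 12550 genes with a mean of at least 3.02 entered a limma model (version 3.58.1, lmFit and eBayes, under R 4.3.3) of the knockout minus control difference with no covariate, and p was Benjamini-Hochberg adjusted over all of them, with a threshold of 0.05. A fold is 2 to the power of the log2 difference, and SE and 95% intervals are from that fit. Arrays have no sequencing depth. Levels of different genes were compared to leave out dim genes, to keep 1 row per gene and to pick the brightest markers. They were also added up in the summed linear signals, in which the brightest genes weigh most. The members and lists were chosen with earlier results of these data known. All members are named. Values per array are given for every member of the classes of 6 or fewer and for the 6 largest differences in the larger classes. Up to 3 genes without overlap are named per further list, and the 3 brightest per marker list. Tested genes of those lists named beyond this are marked as named after their values were seen. The alternatives tried were a block on the title number, other filters, a second quantile normalisation, median centring, the mean of a gene's rows, a trended eBayes prior with or without robust estimation, weights on arrays and leaving out each array. The design text names 2 pairs of mice, but nothing ties the numbers 1 and 2 in the titles to those pairs, so the block is an alternative. Plots were drawn with matplotlib 3.10.9.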

Additional observations from a re-analysis of the deposited data

How the results depend on the processing

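Limma called 0 members and 0 genes under every alternative run, and 0 members were lower at an unadjusted p under 0.05. Of 287 member differences under settings that kept all arrays, 1 turned its sign: Atp6v0d1, -0.017 with arrays centred on their median. That centring moved the median of all genes tested to -0.08 and left 22 members without overlap above the controls and 3 below, where the shares over all genes were 14.2% and 31.8%. The title number as a replicate block gave 10 members at an unadjusted p under 0.05, against 11 without it, and changed no adjusted call. The same-numbered arrays' deviations correlated at 0.05 over genes. With a trend in eBayes, with or without robust estimation, the count was 16. Of the further lysosomal genes, 7 were lower at an unadjusted p under 0.05 with no filter on level, against 4. The median of the 2 tested MiT factors, 0.44, became 0.08 with Tfeb included.

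Leaving out each array in turn, where a lone array borrows the other group's spread, gave a median member difference of 0.18 to 0.42, 4 to 16 higher members at an unadjusted p under 0.05, and 28 to 33 members without overlap above the controls and 3 to 8 below. Over all genes the shares were 3.58% to 6.37% higher at that p, 27.7% to 31.7% above and 41.4% to 43.4% below. Of the further genes, 4 to 19 were higher and 1 to 6 lower at that p. Sign was kept by 33 of 41 members. The exceptions ran from -0.16 to 0.59 (Ctsh), -0.48 to 0.35 (Ctsk), -0.24 to 0.13 (Tpp1), -0.016 to 0.91 (Galns), -0.019 to 0.11 (Cd63), -0.023 to 0.050 (Atp6v0d1), -0.31 to 1.30 (Atp6v0d2) and -0.16 to 0.030 (Tfe3). The class medians ran from 0.28 to 0.59 for proteases and from 0.15 to 0.35 for the lipid class, 0.24 to 0.80 for glycosidases and sulfatases, 0.17 to 0.26 for membrane proteins, 0.038 to 0.20 for the pump and 0.25 to 0.63 for the MiT factors. The cause of these shifts was not tested beyond the array left out.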
